A study of Mus musculus with 9 samples.

Results

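The L-type calcium channel subunit genes are 10 genes of the voltage-gated calcium channel family that were chosen by name: the pore genes Cacna1c, Cacna1d and Cacna1s, the beta genes Cacnb1, Cacnb2 and Cacnb3, the alpha2delta genes Cacna2d1 and Cacna2d2, and the gamma genes Cacng6 and Cacng7. They are 10 of the 26 family genes examined and of the 38293 genes in the count table, from which they were taken by Ensembl identifier, and all 10 passed the filter on low counts. Ventricles of mouse pups at postnatal day 7 were profiled by stranded poly(A) RNA-Seq. The 5 control libraries came from Arid1a f/f pups, which carry the floxed Arid1a alleles without Cre, and the 4 cKO libraries from aMHC-Cre;Arid1a f/f pups. Both groups therefore carry the floxed alleles, and only the cKO pups carry Cre. Cre was driven by the αMHC promoter, which is active in cardiomyocytes, so that fibroblasts, endothelial cells and other cells of the ventricle still hold Arid1a. With no group that has Cre and intact Arid1a, effects of Cre and of the deletion cannot be told apart. The labels name the 9 libraries as replicates but do not say whether each is 1 animal. The paper's legend for the RNA-Seq counts them as hearts, 5 control and 4 cKO. The p-values measure the spread between these samples.

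L-type channels open when the membrane depolarizes and let calcium into the cardiomyocyte, where it triggers release of more calcium from the sarcoplasmic reticulum through the ryanodine receptor. The alpha1 subunit forms the pore and holds the voltage sensor, and CaV1.2, encoded by Cacna1c, is the main pore of ventricular muscle. Beta subunits bind the pore from the cytoplasm, bring it to the membrane and shape its gating. Alpha2delta subunits lie outside the cell and aid trafficking, and gamma subunits are membrane proteins that change the gating of the channel. ARID1A belongs to the SWI/SNF complex, which moves nucleosomes, and binds DNA. The comparison asks how its loss from cardiomyocytes alters these genes in the neonatal ventricle.

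Library totals lay between 31011055 and 40073801 counts. Arid1a stood at 142.4, 128.0, 133.3, 147.3 and 148.1 CPM in the 5 controls, where CPM is the count divided by the library total after TMM scaling and set to a common total. The cKO libraries, at 108.3, 112.9, 100.3 and 104.0 CPM, were lower without overlap (log2 fold change −0.39, SE 0.06, edgeR adjusted p = 0.00132), so the targeted gene followed the labels. The libraries also fell into 2 sets by the ribosomal protein gene copies Rps3a1 and Rps3a3, which cut across the groups. Rps3a3 was at 0.345 to 0.521 CPM in 5 libraries (control replicates 1 and 2, cKO replicates 1, 2 and 3) and at 99.7 to 112.3 CPM in the other 4. The 10 cardiomyocyte marker genes summed to between 41370 and 50030 CPM in controls and between 38510 and 46880 CPM in cKO, with none called. Summed smooth muscle markers were higher in cKO (4277 to 5727 CPM) than in controls (2489 to 3032 CPM), as were summed fibroblast markers (5435 to 5758 CPM against 4133 to 4715 CPM). The higher smooth muscle sum in cKO rests mostly on Acta2, which was at 661 ± 133 CPM in controls and 2834 ± 559 CPM in cKO, and the genes of the list moved in both directions. Of its 8 genes 4 passed the adjusted p (16.3% of all genes), with Acta2, Cnn1 and Des higher and Smtn lower (log2 fold change −0.56, edgeR adjusted p = 0.0414), while Myh11, the smooth muscle myosin, did not pass (−0.30, adjusted p = 0.139). Acta2 and Cnn1 were called. The paper lists Acta2 among potential direct targets of raised YAP/TEAD activity in cKO hearts, and as a gene that normally falls as the heart matures. The sum therefore need not reflect smooth muscle cells alone. In the fibroblast list 4 of 7 genes passed the adjusted p, all higher (8.25% of all genes), with 0 called. Col1a1, Col1a2, Tcf21 and Postn passed. Pdgfra (log2 fold change 0.11, edgeR adjusted p = 0.477), Lum (0.06, 0.763) and Dcn (−0.045, 0.807) did not. Endothelial markers summed to 1403 to 1502 CPM in controls and 1369 to 1463 CPM in cKO. Of these 6 genes 1, Tek, passed the adjusted p, lower (log2 fold change −0.28, edgeR adjusted p = 0.0193, beside 8.03% of all genes). Macrophage markers summed to 72.33 to 112.1 CPM and 78.71 to 132.7 CPM, and 0 of 6 passed, with a median log2 fold change of 0.40. The marker genes named here and below were picked after their values were seen. Beta, alpha2delta and pore genes are also expressed in smooth muscle cells, and the part of these markers in the results was not tested. In bulk ventricle, fewer cells of a type and less RNA per cell cannot be told apart.

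A gene was called at an edgeR adjusted p (Benjamini-Hochberg over 15318 tested genes) under 0.05 and a fold change over 1.5. Of the 10 subunit genes, 1 was called (Cacng6, lower in cKO), beside a background of 6.72% of all tested genes called (614 higher and 416 lower, or 819 higher and 317 lower when scaled to the cardiomyocyte markers). On the adjusted p alone, 3 of 10 passed, namely Cacnb2 and Cacng6 lower and Cacnb3 higher, beside 16.3% of all genes (8.25% higher and 8.03% lower). The same 3 genes had CPM values that did not overlap between the groups, beside 16.7% of all genes. Unadjusted p-values were under 0.05 for 5 of 10, beside 4543 of all 15318 genes. The median log2 fold change was −0.08 over the 10 genes and 0.01 over all tested genes. The study itself singled out Cacna2d1, Cacnb2 and Cacng6 from these samples, so their direction here is not independent evidence. The plot of each gene's CPM by library shows all 10.

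**Figure D1:**
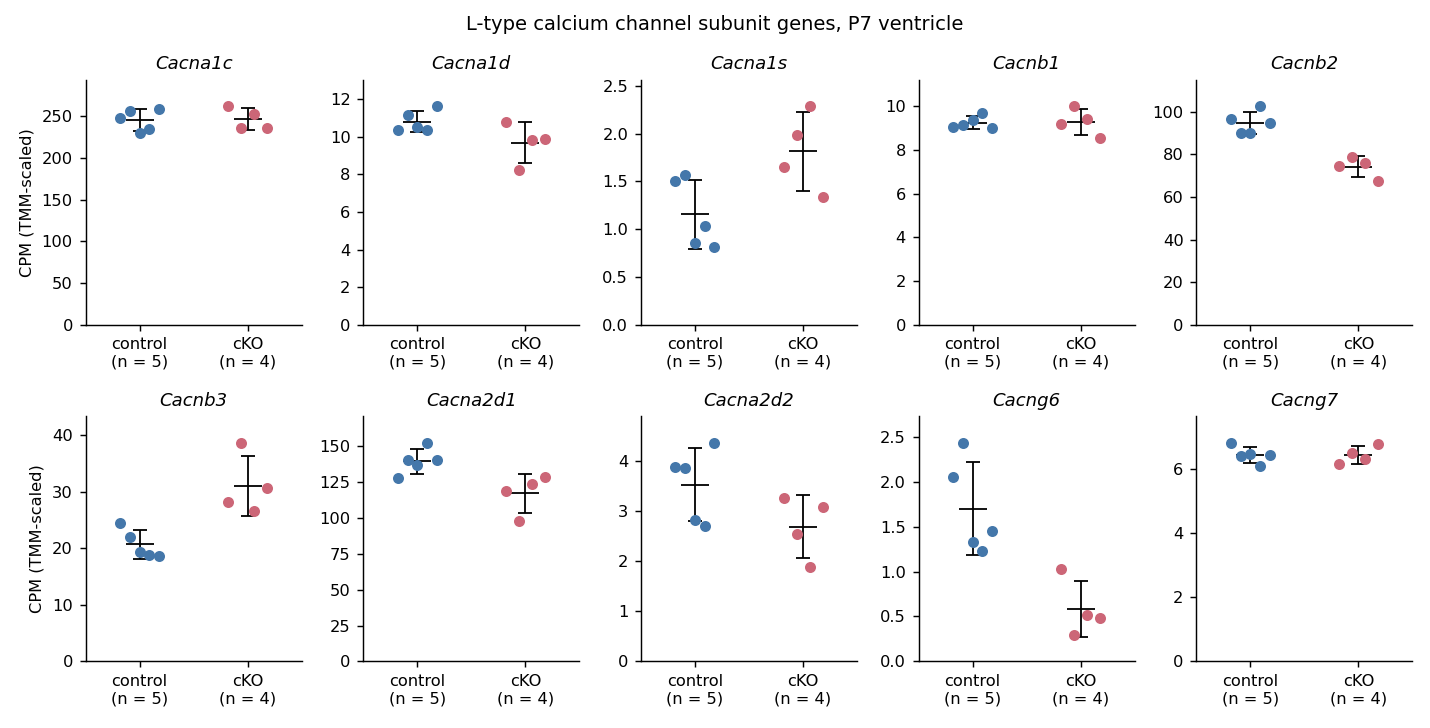
CPM (TMM-scaled, linear axis from 0) of each of the 10 L-type subunit genes in 5 control and 4 cKO ventricle libraries, with a point per library, a horizontal line at the group mean and bars of 1 SD. Cacnb2 (67.38 to 78.81 CPM in cKO, 89.89 to 102.8 CPM in controls), Cacnb3 and Cacng6 show no overlap, while the 2 groups of Cacna1c, Cacnb1 and Cacng7 overlap.

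Between genes, levels were compared as CPM per kilobase of annotated exons. In controls, Cacna1c (11.6 ± 0.611 CPM per kb, SD, n = 5) and Cacna2d1 (11.2 ± 0.707) stood highest and overlapped each other. Cacnb2 (7.17 ± 0.398), Cacnb3 (5.16 ± 0.636), Cacng7 (2.64 ± 0.106) and Cacnb1 (2.04 ± 0.0658) followed, each without overlap with the next. Cacng6 (0.859 ± 0.263) and Cacna1d (0.856 ± 0.0453) overlapped, and Cacna2d2 (0.444 ± 0.0912) and Cacna1s (0.176 ± 0.0546) were lowest, apart from each other. The order in cKO differed in the middle and at the bottom. Cacna1c (11.6 ± 0.62, n = 4) now lay above Cacna2d1 (9.43 ± 1.1) without overlap, Cacnb3 (7.73 ± 1.34) stood above Cacnb2 (5.61 ± 0.37) without overlap, and Cacng6 (0.294 ± 0.159) fell to a level that overlapped Cacna2d2 (0.339 ± 0.078) and Cacna1s (0.277 ± 0.0633). Cacna1c transcript per kb was higher than that of 76.0% of the tested genes. The order depends on the length used. With the longest transcript as length, Cacnb2 (18.86), Cacna2d1 (18.75) and Cacna1c (18.64 CPM per kb) overlapped at the top in controls, and Cacnb2 (14.75) had the higher mean of the pair with Cacnb3 (11.34) in cKO, with overlap.

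The RNA of the main pore did not differ detectably between the groups. Cacna1c (GRCm38 chr6:118587240-119196418, minus strand) was at 248.2, 255.9, 229.6, 234.4 and 258.8 CPM in control replicates 1 to 5. In cKO replicates 1 to 4 it was at 262.1, 235.7, 253.0 and 235.8 CPM, within the control range except for replicate 1, which lay just above it. The log2 fold change was 0.01 (SE 0.06, edgeR adjusted p = 0.948), with a 95% interval of −0.13 to 0.14. The exact permutation test on log2(CPM + 0.5), two-sided and over every way of dividing the libraries into groups of 5 and 4, gave p = 0.881. The interval does not reach a 1.5-fold change in either direction.

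The other L-type pores were rarer, and neither passed the test. Cacna1d (chr14:30039939-30491455), which encodes CaV1.3, the pore that opens at more negative voltages and serves pacemaking in the sinus node, was at 10.35, 11.15, 10.53, 10.35 and 11.64 CPM in controls. In cKO it was at 10.79, 8.22, 9.85 and 9.90 CPM, with cKO replicate 1 inside the control range (log2 fold change −0.16, 95% interval −0.37 to 0.06, edgeR adjusted p = 0.323). Its exons share 589 bases with those of Chdh on the opposite strand, and the strand setting of the counting is not given in the sources used here. Cacna1s (chr1:136052750-136119822), the pore gene of skeletal muscle, was at 1.504, 1.564, 0.859, 1.04 and 0.808 CPM in controls and at 1.65, 1.99, 2.29 and 1.33 CPM in cKO. In cKO, 3 of the 4 libraries were above all controls and cKO replicate 4 was not. Its log2 fold change of 0.65 (SE 0.26, 95% interval 0.09 to 1.21) missed the threshold (edgeR adjusted p = 0.114, exact permutation p = 0.0635). With labels permuted within the library sets the exact p was 0.025, the smallest that test can give, and without cKO replicate 4 it was 0.0357. Each Cacna1s value rests on 25 to 79 counts. Skeletal muscle markers summed to 118.6 to 161.2 CPM in cKO and 23.3 to 45.9 CPM in controls, most of it Mybpc2 (29.4 CPM in controls, 135 CPM in cKO), with Myf6 and Myod1 at 0 in every library. Of the 13 genes 5 were tested, Mybpc2 was the 1 called (6.72% of all genes), and Tnnt3 (log2 fold change 0.62, edgeR adjusted p = 0.0529), Tnni2 (0.80, 0.079) and Myh8 (−1.09, 0.0943) did not pass. Myog held 0 to 1 counts in each control and 3 to 5 in each cKO library. The part of these markers in the Cacna1s values was not tested. Short exon overlaps with opposite-strand genes also touch Cacnb1 (80 bases, Gm11629) and Cacna2d2 (82 bases, Gm17141), and a longer one Cacna1s (1309 bases, Gm37759).

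As a share of L-type pore transcript per kb, Cacna1c made up 91.8% ± 0.224 in controls and 91.8% ± 0.33 in cKO. Cacna1d made up 6.79% and 6.05%, and Cacna1s 1.39% and 2.18%. Cacna1f, the retinal L-type pore and no member of the list of 10, did not pass the low-count filter.

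Among the beta genes, Cacnb2 was lower and Cacnb3 higher in cKO, and Cacnb1 did not pass the test. Cacnb2 (chr2:14603088-14987908, plus strand) encodes the main beta subunit of heart muscle. It was at 96.53, 90.31, 89.89, 102.8 and 94.74 CPM in control replicates 1 to 5. In the cKO libraries it was at 74.41, 78.81, 76.19 and 67.38 CPM, all under the lowest control. The mean was 94.8 CPM (SD 5.26) over the 5 controls against 74.2 CPM (SD 4.89) over the 4 cKO libraries. The log2 fold change was −0.35 (SE 0.07, 95% interval −0.50 to −0.21, edgeR adjusted p = 0.0034). Its fold of 1.28 was under the threshold for a call. The exact permutation p was 0.00794, the smallest that this test can give. With labels permuted within the 2 library sets only, p was 0.025, again the smallest possible. Within sets the log2 fold change of Cacnb2 was −0.29 in the 5 Rps3a3-low libraries (edgeR adjusted p = 0.0416) and −0.51 in the other 4 (adjusted p = 0.0115). Those 4 hold 3 controls and 1 cKO library, so their value rests on cKO replicate 4 alone, assumed to vary like the other libraries, and is no replicated test. Scaling the libraries to the summed cardiomyocyte markers ended its significance (log2 fold change −0.27, adjusted p = 0.126), as did a fit on the Rps3a3-low libraries alone (−0.29, adjusted p = 0.0953). Genes on the opposite strand overlap its exons, of which the pseudogene Gm10849 held 6 counts over the 9 libraries and the antisense gene Gm13269 held 0, while the antisense gene Gm10848 was not analysed here.

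Cacnb3 (chr15:98630840-98644529, plus strand), a beta gene also known from neurons and smooth muscle, moved the other way. Its CPM values were 24.55, 22.04, 19.28, 18.87 and 18.69 in controls. The cKO libraries held 28.12, 38.68, 26.59 and 30.67 CPM, all above the highest control, with cKO replicate 2 the highest. The mean rose from 20.69 ± 2.551 to 31.02 ± 5.378 CPM (log2 fold change 0.58, SE 0.12, 95% interval 0.32 to 0.85, edgeR adjusted p = 0.00596). The fold of 1.499 lay just under the threshold, so that Cacnb3 was not called here and was called in 9 of the 19 alternative fits. The exact permutation p was 0.00794, and 0.025 within library sets. The log2 fold change was 0.42 within the Rps3a3-low libraries (edgeR adjusted p = 0.104) and 0.69 within the others, where cKO replicate 4 is the only cKO library. A fit on the Rps3a3-low libraries alone did not pass (0.42, adjusted p = 0.238). The difference between sets did not pass its own test (adjusted p at least 0.947 for each of the 10 genes). The summed smooth muscle and fibroblast markers were higher in the same cKO libraries, as given above, and their part in the Cacnb3 rise was not tested.

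Cacnb1 (chr11:98001508-98023034), the beta gene of skeletal muscle, was between 8.99 and 9.72 CPM in controls and between 8.55 and 10.02 CPM in cKO. Its log2 fold change was 0.00 (SE 0.09, 95% interval −0.19 to 0.20, edgeR adjusted p = 0.982).

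The opposite directions of Cacnb2 and Cacnb3 changed the make-up of beta transcript. Per 100 Cacnb2 counts there were 25.4, 24.4, 21.4, 18.4 and 19.7 Cacnb3 counts in the controls. In the cKO libraries there were 37.8, 49.1, 34.9 and 45.5. Each of the 2 genes lacked overlap, in opposite directions, so this ratio could not overlap either and is no separate evidence. This ratio was taken within each library, so library scaling does not enter it. Per kb of exons, Cacnb2 made up 48.4% ± 2.43 of beta transcript in controls (46.1% to 51.6%) and 35.6% ± 2.76 in cKO (32.8% to 38.6%). Cacnb3 made up 34.8% ± 3.11 in controls (31.3% to 38.8%) and 48.7% ± 3.94 in cKO (44.5% to 53.1%). Cacnb1 held 13.8% and 13.0%, and Cacnb4, a beta gene outside the list of 10, 2.99% and 2.72%. The sum over the 4 beta genes was 14.8 ± 0.668 CPM per kb in controls and 15.8 ± 1.58 in cKO, with overlap. Which of the 2 genes led in cKO depended on the gene length used, since with the longest transcript as length Cacnb2 held 63.6% in controls and 50.5% in cKO and Cacnb3 25.5% and 38.6%. The direction of both shifts was the same with either length. The stacked bars by library show both shifts, and bulk counts do not say in which cells they lie.

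**Figure D2:**
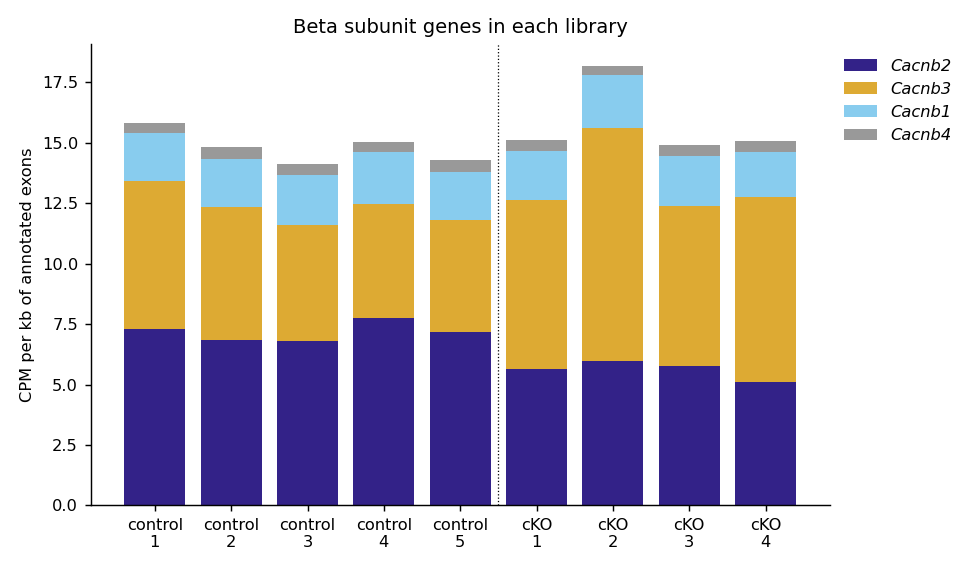
CPM per kb of annotated exons of the 4 beta genes, stacked, in each of the 5 control libraries (left of the dotted line) and the 4 cKO libraries (right). The Cacnb2 segment is taller than the Cacnb3 segment in every control and shorter in every cKO library, and cKO replicate 2 has the tallest bar, at 18.2 CPM per kb.

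Set against the pore, Cacnb2 stood at 38.8 ± 3.27 counts per 100 Cacna1c counts in controls and at 30.1 ± 2.34 in cKO, without overlap. Cacnb3 stood at 8.44 ± 0.972 and 12.7 ± 2.74, also without overlap. Of all tested genes, 14.0% had levels relative to Cacna1c that did not overlap between the groups.

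The alternative start sites of Cacnb2 and Cacnb3 are shown because each gene has more than 1 and the counts, summed over a gene, do not tell them apart. RefSeq (GRCm38.p6) gives 2 promoter windows for each, from 250 bases before to 50 after a start, printed 5′ to 3′ on the plus strand with CG dinucleotides in capitals. In each pair 1 window is rich in CG and the other is not.
Cacnb2 chr2:14604056-14604355: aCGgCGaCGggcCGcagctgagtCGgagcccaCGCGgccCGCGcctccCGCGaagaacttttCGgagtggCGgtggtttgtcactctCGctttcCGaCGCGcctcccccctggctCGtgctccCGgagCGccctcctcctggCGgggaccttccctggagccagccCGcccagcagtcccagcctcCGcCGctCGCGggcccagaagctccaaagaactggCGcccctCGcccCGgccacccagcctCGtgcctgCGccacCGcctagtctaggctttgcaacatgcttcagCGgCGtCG
Cacnb2 chr2:14823842-14824141: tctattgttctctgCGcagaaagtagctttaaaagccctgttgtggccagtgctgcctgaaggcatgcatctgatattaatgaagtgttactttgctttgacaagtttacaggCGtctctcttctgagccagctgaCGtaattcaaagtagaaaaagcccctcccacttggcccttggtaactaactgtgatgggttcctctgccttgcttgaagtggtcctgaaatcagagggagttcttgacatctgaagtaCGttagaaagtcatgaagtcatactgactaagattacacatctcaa
Cacnb3 chr15:98632078-98632377: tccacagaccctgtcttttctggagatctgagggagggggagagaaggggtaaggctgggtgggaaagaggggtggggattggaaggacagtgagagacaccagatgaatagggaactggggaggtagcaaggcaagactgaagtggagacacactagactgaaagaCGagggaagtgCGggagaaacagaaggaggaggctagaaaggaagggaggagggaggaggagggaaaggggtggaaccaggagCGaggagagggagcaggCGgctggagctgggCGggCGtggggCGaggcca
Cacnb3 chr15:98634517-98634816: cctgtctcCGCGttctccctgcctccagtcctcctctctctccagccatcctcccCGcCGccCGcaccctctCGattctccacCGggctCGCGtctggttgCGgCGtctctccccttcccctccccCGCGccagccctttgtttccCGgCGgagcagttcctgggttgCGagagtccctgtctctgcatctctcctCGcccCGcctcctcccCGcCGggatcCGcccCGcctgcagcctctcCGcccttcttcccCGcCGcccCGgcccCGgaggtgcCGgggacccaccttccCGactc
The Cacnb2 windows hold 35 and 4 CG dinucleotides at a GC content of 71.7% and 44.0%. Those of Cacnb3 hold 7 and 29, at 59.7% and 72.0%. The median over 32851 RefSeq windows was 7 CG and 52.7% GC.

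Neither alpha2delta gene passed the test across all genes, although Cacna2d1 came close. Cacna2d1 (chr5:15934691-16374511) encodes the alpha2delta subunit of heart and skeletal muscle. It was at 127.8, 140.0, 137.0, 152.3 and 140.2 CPM in controls. In cKO it was at 118.6, 97.5, 123.8 and 128.5 CPM, where replicate 2 was the lowest and replicate 4 lay inside the control range. The log2 fold change was −0.25 (SE 0.08, 95% interval −0.43 to −0.07, edgeR adjusted p = 0.0564). DESeq2 put it past the threshold (adjusted p = 0.0333), and the exact permutation p was 0.0238. Without cKO replicate 2 the log2 fold change was −0.17, and with scaling to the cardiomyocyte markers −0.16 (edgeR adjusted p = 0.522). Cacna2d2 (chr9:107399612-107529343), the alpha2delta gene best known from brain and lung, was at 2.71 to 4.37 CPM in controls (median 3.85) and at 1.88 to 3.27 CPM in cKO. It had a log2 fold change of −0.39 (SE 0.21, 95% interval −0.84 to 0.06, edgeR adjusted p = 0.236). Cacna2d1 made up 95.8% ± 1.05 of alpha2delta transcript per kb in controls and 96.3% ± 0.77 in cKO.

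Cacng6 was the 1 called member and fell furthest. It encodes the gamma6 subunit, a protein of striated muscle that can reduce current through calcium channels of the T type. Cacng6 (chr7:3424195-3435667, plus strand) was at 2.05, 2.43, 1.33, 1.23 and 1.46 CPM in control replicates 1 to 5, from 68, 84, 48, 39 and 45 counts. In cKO replicates 1 to 4 it was at 1.03, 0.292, 0.521 and 0.484 CPM, from 33, 11, 18 and 20 counts. All cKO libraries lay under the lowest control, and cKO replicate 1 came nearest to it. Means were 1.70 ± 0.519 CPM in controls and 0.581 ± 0.314 CPM in cKO. The log2 fold change was −1.56 (SE 0.35, 95% interval −2.32 to −0.79) or a 2.94-fold lower level (edgeR adjusted p = 0.0101). The exact permutation p was 0.00794. Among the background genes 2.72% were called lower. Leaving out each library in turn gave log2 fold changes of −1.97 to −1.33 and adjusted p of 0.00234 to 0.0344. Within the Rps3a3-low libraries it was −1.88 (edgeR adjusted p = 0.0131) and within the others, which hold a single cKO library, −1.46 (adjusted p = 0.152). A fit on the Rps3a3-low libraries alone did not pass (adjusted p = 0.0533).

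Cacng7 (chr7:3332955-3368221, plus strand), which lies just before Cacng6 on the same strand with Cacng8 between them and is best known from the nervous system, was at 6.83, 6.40, 6.48, 6.10 and 6.43 CPM in controls. In cKO it was at 6.16, 6.52, 6.32 and 6.78 CPM, inside the same range. Its log2 fold change was −0.00 (SE 0.10, 95% interval −0.22 to 0.21, edgeR adjusted p = 0.996), and it was above 0 under upper-quartile and cardiomyocyte marker scaling (0.01 and 0.09). Per 100 Cacng7 counts there were 26.2 ± 7.68 Cacng6 counts in controls and 9.13 ± 5.27 in cKO. With Cacng7 at about the same level in both groups, this ratio restates the Cacng6 values and is no separate evidence. Cacng6 thus made up 22.5% of gamma transcript per kb in controls and 9.01% in cKO, and Cacng7 70.2% and 80.5%. The genes within 100 kb of Cacnb2 and Cacnb3 were looked at after these values were seen. Around Cacnb2, 2 were tested by edgeR and none called, Arl5b (log2 fold change −0.11, adjusted p = 0.507) and Nsun6 (−0.04, adjusted p = 0.89). Of the 9 tested around Cacnb3, 1 was called (6.72% of all genes) and 2 passed the adjusted p (16.3%). Rnd1 was called higher (log2 fold change 1.04, edgeR adjusted p = 0.0082), and Adcy6, the gene of a cardiac adenylyl cyclase, passed the adjusted p in the other direction (−0.39, adjusted p = 0.000692).

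The RefSeq promoter window of Cacng6 is shown because Cacng6 was the called member, and because its window holds CATTCC, the core of the motif bound by the TEAD partners of YAP, in capitals.
Cacng6 chr7:3424412-3424711: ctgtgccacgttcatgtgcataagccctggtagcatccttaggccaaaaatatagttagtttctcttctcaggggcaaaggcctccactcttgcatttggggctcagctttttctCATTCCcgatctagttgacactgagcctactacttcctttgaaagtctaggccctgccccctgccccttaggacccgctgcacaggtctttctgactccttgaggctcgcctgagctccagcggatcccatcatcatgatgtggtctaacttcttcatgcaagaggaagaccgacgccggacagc
The motif begins at position −135 from the RefSeq start, which lies downstream of the first base of the GENCODE gene. CATTCC on either strand was found in 14.7% of the 32851 windows. It was also found in the windows of Cacng7 on the same strand and of Cacna1s and Cacna2d2 on the opposite strand, none of which passed the test, and in none of the Cacnb2 or Cacnb3 windows. Of the other motifs searched on both strands in the 16 windows of the 10 genes, TATAAA (13.6% of all windows) was found in 1 window of Cacna1d. AGATAA (11.2%), AAGGTCA (4.72%), the MEF2 box (3.19%) and the CArG box (1.63%) were found in none. No motif overlapped another of a different kind, and a match of letters is not a bound site.

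**Figure D3:**
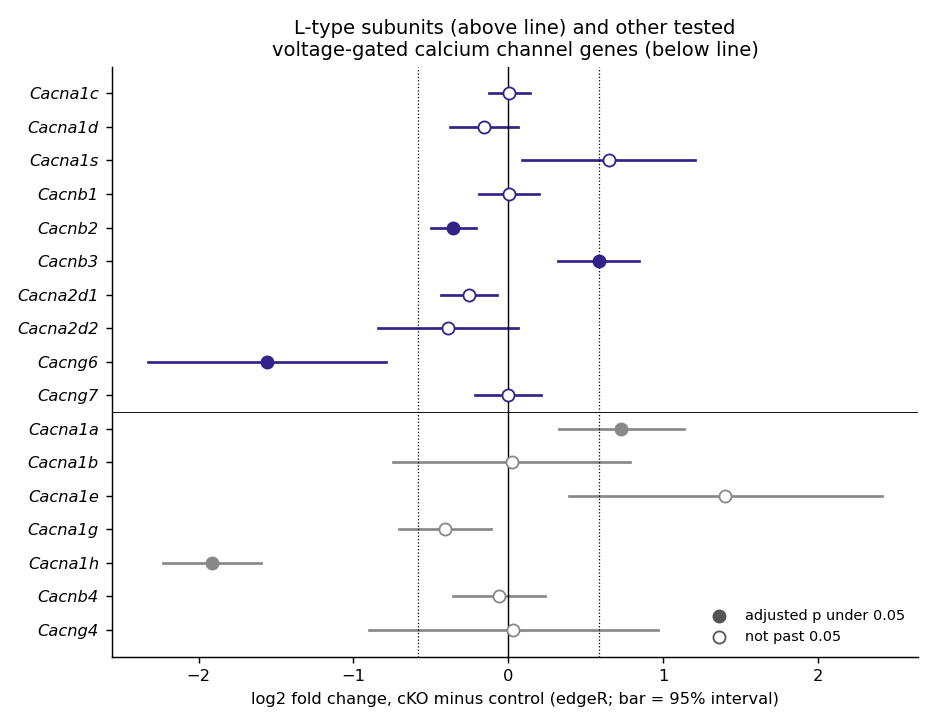
Log2 fold change (cKO minus control, edgeR) with its 95% interval for the 10 L-type subunit genes above the line and the 7 other tested calcium channel genes below it, filled where the adjusted p was under 0.05, with dotted lines at a 1.5-fold change in either direction. Cacng6 (−1.56) and Cacna1h (−1.91) lie beyond the left dotted line, Cacna1a (0.73), Cacna1s (0.65) and Cacna1e (1.40) lie beyond the right one, of which only Cacna1a is filled, and Cacnb3 (0.58) lies on it.

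Of the 16 other voltage-gated calcium channel genes, 7 passed the low-count filter, of which 2 were called, 1 in each direction (6.72% of all genes), with a median log2 fold change of 0.02. Cacna1h encodes CaV3.2, a T-type pore of the fetal and neonatal heart that opens at negative voltages. It fell from 24.3, 20.0, 26.1, 16.2 and 24.4 CPM in controls to 5.75, 6.73, 5.77 and 5.30 CPM in cKO. The groups lay far apart (log2 fold change −1.91, SE 0.15, edgeR adjusted p = 5.19e-06), and Cacna1h passed in each of the 19 alternative fits. Of the sinus node and atrial markers 7 of 9 were tested, 2 were called (6.72% of all genes) and 3 passed the adjusted p (16.3%). The called genes were Hcn4, lower (log2 fold change −3.11, edgeR adjusted p = 5.13e-05) and Myl7, higher (1.20, adjusted p = 0.00493), and the other was Tbx3 (−0.44, 0.0473). The list summed to 83.1 to 163.1 CPM in controls and 140.3 to 207.8 CPM in cKO, and its part in the Cacna1h fall was not tested. Cacna1g, the other T-type pore of the heart, was at 114.6 ± 20.1 CPM in controls and 86.4 ± 13.1 CPM in cKO, with overlap (log2 fold change −0.41, SE 0.13, edgeR adjusted p = 0.0616). It passed in 6 of the 19 alternative fits, among them DESeq2 (adjusted p = 0.0207), the library set as a term (−0.49, 0.0102) and the Rps3a3-low libraries alone (−0.62, 0.0448). Cacna1a, the P/Q-type pore of nerve terminals, rose from 9.56 ± 1.67 to 15.9 ± 4.68 CPM (log2 fold change 0.73, SE 0.18, edgeR adjusted p = 0.0187). Part of the rise came from cKO replicate 4, at 22.5 CPM, without which the log2 fold change was 0.51 and Cacna1a was no longer called (adjusted p = 0.0479). It was 0.29 within the Rps3a3-low libraries and 1.41 within the others, where cKO replicate 4 is the only cKO library, a difference that did not pass its test (adjusted p = 0.397). Cacna1e, the R-type pore gene, was low throughout (0.155 CPM in controls, 0.416 CPM in cKO) and missed the threshold without overlap (1.40, SE 0.46, adjusted p = 0.0601). A fit that added the library set gave 1.78 (adjusted p = 0.0177) and one without control replicate 3 gave 1.82 (adjusted p = 0.0279), both past the threshold. Cacna1b (0.02, adjusted p = 0.976), Cacnb4 (−0.06, adjusted p = 0.808) and Cacng4 (0.03, adjusted p = 0.969) did not pass. Summed neuronal and glial markers overlapped between controls (22.7 to 28.8 CPM) and cKO (21.7 to 30.4 CPM), and 1 of the 6 tested of its 11 genes, Dbh, was called higher (0.61, adjusted p = 0.0258), beside 4.01% of all genes.

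Over all pore genes, per kb of exons, Cacna1c and Cacna1g held 42.9% ± 2.56 and 41.5% ± 3.8 of pore transcript in controls. With the longest transcript as length they held 49.8% and 36.2%, without overlap. In cKO Cacna1c held 50.1% ± 3.79 and Cacna1g 36.5% ± 4.01. Cacna1h held 8.45% ± 1.83 in controls and 2.59% ± 0.192 in cKO, and Cacna1a 3.09% and 5.99%. The summed pore transcript was 27.1 ± 2.52 CPM per kb in controls and 23.3 ± 0.967 in cKO. The plot of pore genes on a log axis shows the overlapping groups of Cacna1c beside the separate groups of Cacna1h.

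**Figure D4:**
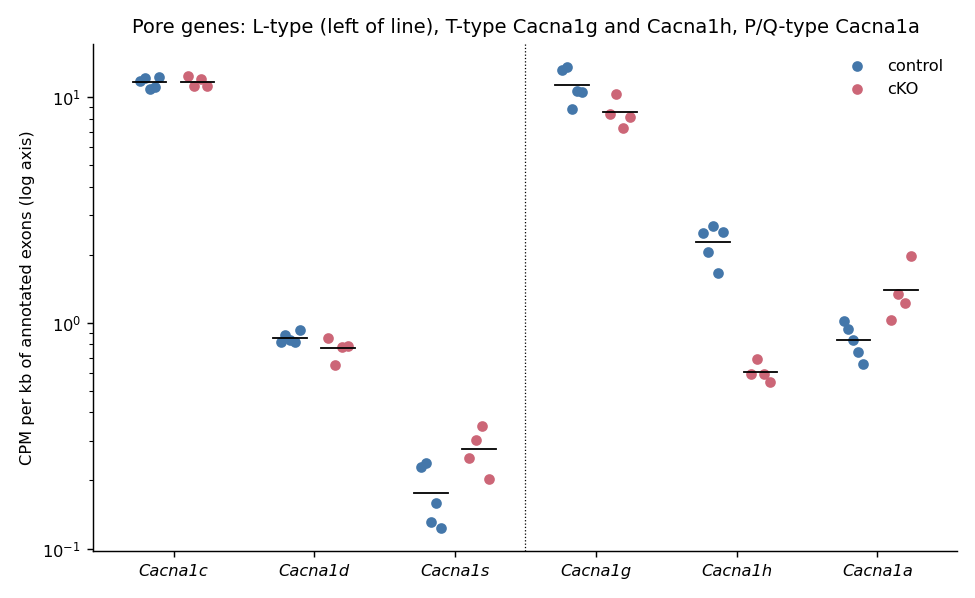
CPM per kb of annotated exons (log axis) of the L-type pore genes Cacna1c, Cacna1d and Cacna1s (left of the dotted line) and of Cacna1g, Cacna1h and Cacna1a (right) in 5 control and 4 cKO libraries, with a point per library and a line at the group mean. Cacna1c stays at about the same level (11.6 CPM per kb in both groups), while Cacna1h drops from a mean of 2.27 to 0.603 CPM per kb.

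Proteins that regulate the channel were examined as a list of 24 genes, 23 of them tested. None was called by edgeR or DESeq2. By edgeR, 13 had an unadjusted p under 0.05 and 5 passed the adjusted p, all lower, and the list median was −0.22. Over all 15318 tested genes, 4543 had an unadjusted p under 0.05, 16.3% passed the adjusted p and 8.03% passed lower. By DESeq2, 8 passed the adjusted p, 2 higher and 6 lower, and after scaling to the cardiomyocyte markers 3 passed by edgeR, 1 higher and 2 lower. Camk2g and Camk2d encode calmodulin-dependent kinases II that phosphorylate the channel. Camk2g fell from 86.4 ± 3.31 to 60.8 ± 3.15 CPM (log2 fold change −0.51, edgeR adjusted p = 0.000159). Camk2d, the main cardiac form, fell from 332.6 ± 17.9 to 251.9 ± 17.1 CPM (−0.40, adjusted p = 0.00147). Prkaca, the catalytic subunit of protein kinase A through which adrenergic signals raise the current, fell by 0.33 on the log2 scale (adjusted p = 0.00493). Ppp3cb, a catalytic subunit of the phosphatase calcineurin, fell by 0.35 (adjusted p = 0.0157). Rrad, named after its values were seen, encodes the GTPase Rad, which binds beta subunits and restrains the current. It was at 121.5 ± 15.9 CPM in controls and 85.4 ± 17.5 CPM in cKO, with overlap (−0.51, adjusted p = 0.0224).

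None of the 12 tested partners of the channel in the calcium release unit was called by either tool. By edgeR, 5 had an unadjusted p under 0.05 and the same number passed the adjusted p, 4 lower and 1 higher (8.03% and 8.25% of all genes), with a list median of −0.16. After scaling to the cardiomyocyte markers 2 passed, 1 in each direction. Ryr2, named for its role after its values were seen, encodes the ryanodine receptor that the channel activates. It was at 1418 ± 116 CPM in controls and 1314 ± 102 CPM in cKO (−0.11, edgeR adjusted p = 0.369). Casq2, the calcium buffer of the sarcoplasmic reticulum, fell from 1187 ± 51.6 to 858.3 ± 65.6 CPM (−0.47, adjusted p = 0.000534). Jph1, a junctophilin that ties the surface membrane to the reticulum, fell from 15.8 ± 1.27 to 10.8 ± 0.756 CPM (−0.54, adjusted p = 0.00185). Pln, the phospholamban gene, fell from 5871 ± 393 to 4307 ± 670 CPM (−0.45, adjusted p = 0.00875). Hrc, a histidine-rich calcium-binding protein of the reticulum, rose from 368.1 ± 34.8 to 485.8 ± 56.5 CPM (0.40, adjusted p = 0.0102). Atp2a2, the calcium pump of the reticulum, was the fifth to pass (−0.23, adjusted p = 0.0458) and was named after its values were seen.

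**Figure D5:**
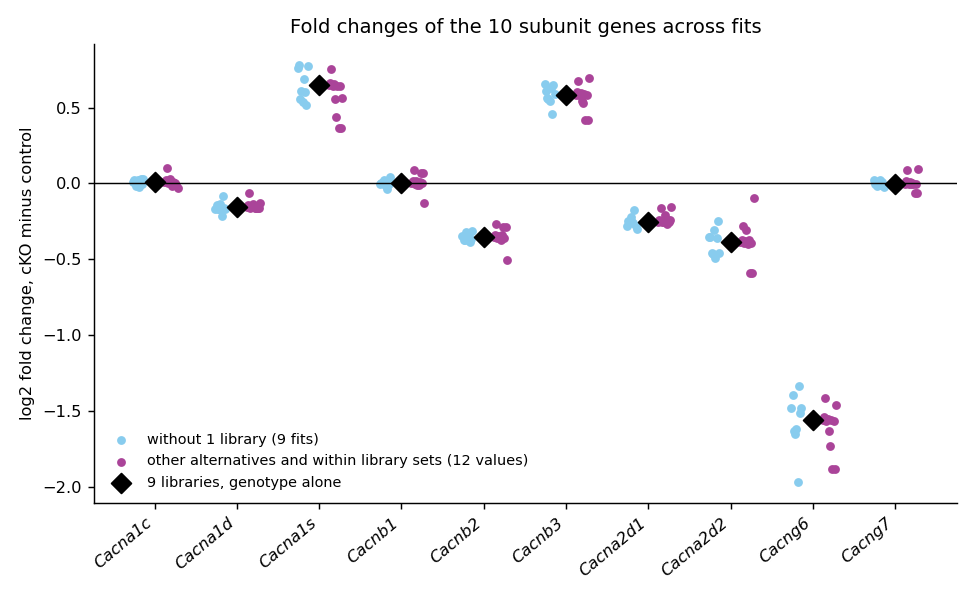
Log2 fold change (cKO minus control) of the 10 L-type subunit genes from 9 libraries with genotype alone (diamonds), from 9 fits without 1 library each (light points) and from 12 further values, the other alternatives and the effects within library sets (dark points). Cacnb2 and Cacng6 stay under 0 and Cacnb3 stays above 0 in every fit, while Cacna1c, Cacnb1 and Cacng7 scatter on both sides of 0.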

How the data were processed

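A table of raw counts, not normalized, was deposited by the authors for the 9 libraries, and its columns were matched to the labels by name (0 columns of other samples). Per the labels, total RNA of ventricles was made into stranded mRNA libraries. The study's methods give single-end reads of 75 bases mapped to mm10 (GRCm38), and the submitters' processing notes name STAR 2.4.2a and HTSeq 0.6.1. Neither the annotation nor whether counting used strand is given in the sources used here. The study's methods name fewer controls than the labels, which were followed. Symbols, coordinates and exon lengths came from GENCODE M21 (GRCm38), and identifiers with a symbol hold 99.82% of the counts.

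Genes were kept by filterByExpr (minimum count 10), scaled by TMM and tested with the robust quasi-likelihood F test of edgeR 4.0.16 in R 4.3.3 with genotype alone, two-sided, with Benjamini-Hochberg adjustment over 15318 genes. The thresholds, a fold over 1.5 and an adjusted p under 0.05, follow the study's methods, which used DESeq2. Exact permutation tests used log2(CPM + 0.5) of each of the 10 genes and Arid1a and were not adjusted over them. Shares and ratios were described without a test. The script was tested on simulated counts. Alternatives were DESeq2 1.42.0, other scalings, filters and pseudocounts, the replicate number as a block, the library set as a term, Xist level as a covariate, the Rps3a3-low libraries alone (cut at 10 CPM), each library left out, and the longest transcript as gene length. The effects within library sets were added after the data had been seen. The members and gene lists were chosen with earlier results of these data known. The named genes are the 10 members, Arid1a, each other tested family gene, and the 4 genes of smallest adjusted p in the lists of regulators and release unit partners. Others are marked as named after their values were seen. The result of 1 further gene is not reported here.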

Additional observations from a re-analysis of the deposited data

Results flagged for a closer look

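In 1 of 36 groups of libraries examined for a single distant value, the lowest library stood apart from the rest. Cacnb4 in cKO replicate 2 was at 3.23 CPM while the other 3 cKO libraries lay between 3.92 and 4.08 CPM. On the log scale of the permutation tests, with the same pseudocount, the gap took up 0.833 of the range of the group. About 1 in 20 groups is expected to show such a gap by chance. The same library was the lowest of its group for Cacna2d1 (97.5 CPM) and Cacng6 (0.292 CPM) and the highest for Cacnb3 (38.7 CPM), none of which stood apart by this measure.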

How the results depend on the processing

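Of 475 alternative values, 392 kept their direction and side of the threshold or, for counts of genes, stayed within 1.5 times the count reported, which does not say that the genes were the same, or, for shares, moved by less than 1 SD. The count of called subunit genes, 1 with all libraries, was 2 with upper-quartile scaling, cardiomyocyte marker scaling, a filter at a mean of 1 CPM or Xist as a covariate (Cacnb3 joined), 0 in the Rps3a3-low libraries alone and 3 with no fold threshold, and 1 to 2 when a library was left out. Over all genes, 620 were called in the Rps3a3-low libraries and 2493 with no fold threshold. Calls among the other channel genes numbered 1 to 3 when a library was left out (1 without cKO replicate 4, 3 without control replicate 3) and 3 with the library set as a term (Cacna1e joined), among regulators 1 with the library set as a term, 0 to 1 without a library and 5 with no fold threshold, and among release unit partners 5 with no fold threshold. Arid1a missed the threshold with cardiomyocyte marker scaling (−0.31, adjusted p = 0.0888) and in the Rps3a3-low libraries (−0.33, adjusted p = 0.0822). The causes of these changes were not tested, except that the Rps3a3-low fits hold 5 libraries only. With the longest transcript as length, the shares in controls and cKO were 93.5% and 93.5% for Cacna1c, 63.6% and 50.5% for Cacnb2, and 25.5% and 38.6% for Cacnb3.

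The genes with log2 fold changes near 0 changed sign without passing any test. Cacna1c was at −0.0183 with the library set as a term, −0.0098 in the Rps3a3-low libraries alone, −0.0102 within that set and −0.0313 within the other set, and at −0.0232 to 0.0285 without a library. Cacnb1 was at −0.0012 without a filter, −0.0092 with the library set as a term and −0.1323 within the Rps3a3-high set, and at −0.0345 to 0.0422 without a library. Cacng7 was at 0.0126 with upper-quartile scaling, 0.0874 with cardiomyocyte marker scaling, 0.0066 with a filter at a mean of 1 CPM and 0.0964 within the Rps3a3-high set, and at −0.0269 to 0.0203 without a library. The permutation differences ranged, without a library, from −0.0221 to 0.0288 for Cacna1c, from −0.0329 to 0.0398 for Cacnb1 and from −0.0243 to 0.0185 for Cacng7. Without a library, the permutation p of Cacna2d1 was above 0.05 in 5 fits, that of Cacna1d was under it without cKO replicate 1 (0.0179) and that of Cacna1s without cKO replicate 4 (0.0357).

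Same-numbered control and cKO libraries do not pair: the correlations of their deviations were 0.0227, 0.0361, 0.0107 and 0.232 for numbers 1 to 4, and no cKO library matched its own number best. With the replicate number as a block, 888 genes, 1 subunit gene (Cacng6), 1 other channel gene (Cacna1h), 0 regulators and 0 partners were called, and Cacnb1 was at −0.008. Cacna1a then missed the threshold (adjusted p = 0.102) and Cacna1g passed its adjusted p (0.0105). Depth limits the genes of low count, among them Cacna1e (1 to 20 counts a library), Cacna1b (7 to 18), Cacng4 (7 to 50), Cacng6 (11 to 84) and Cacna1s (25 to 79).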
